A study of Mus musculus with 6 samples.

Results

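The nuclear genes for the subunits of the oxidative phosphorylation machinery were examined in regulatory T (Treg) cells with and without O-GlcNAc transferase (OGT), the enzyme that adds N-acetylglucosamine to serines and threonines of nuclear, cytosolic and mitochondrial proteins. Genes were taken by symbol: those beginning with Ndufa, Ndufb, Ndufc, Ndufs or Ndufv, the Sdha to Sdhd genes, and those beginning with Uqcr, Cox4 to Cox8 or Atp5. This gave 92 of the 24420 genes in the table, of which 38 belong to complex I, 4 to complex II, 8 to complex III, 18 to complex IV and 15 to complex V. The other 9, called the assembly group here, carry matching symbols but are assembly factors or homologous proteins (7 Ndufaf genes, Atp5s and Atp5sl).

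RNA of YFP+ Treg cells from the lymph nodes of female C57BL/6 mice was sequenced in 3 libraries per genotype. The paper's methods for these libraries do not themselves name the tissue. OGT-sufficient cells came from Foxp3YFP-Cre/wt Ogtwt/fl females and OGT-deficient cells from Foxp3YFP-Cre/wt Ogtfl/fl females, the labels giving no age and the methods only a general range of young adult age. Every library therefore came from cells that express Cre from the Foxp3 locus, and the control cells carry a floxed allele too; whether it lies on the X chromosome with Cre is not given in the labels. Cells were enriched for CD4 with beads and sorted on YFP alone. Foxp3 and Ogt are both on the X chromosome, so in these females Cre is expressed where the X chromosome with the Cre allele is active, and unrecombined Treg cells remain in the same animals. The labels number the libraries within each group but do not say that each came from its own animal, so the p-values below measure the spread between these libraries, which may in part be technical.

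Oxidative phosphorylation couples the flow of electrons to the making of ATP. Complexes I and II pass electrons from NADH and succinate to ubiquinone, complex III passes them on to cytochrome c and complex IV to oxygen. Complexes I, III and IV pump protons, and complex V, the ATP synthase, uses the gradient. Most subunits are encoded in the nucleus and a few in mitochondrial DNA; genes with a mt- symbol were not analysed here. Treg cells are known for relying on oxidative phosphorylation more than conventional effector T cells do.

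Total counts were 3375454 to 4103552 per library, and 24.2% to 37.1% of them fell on the ribosomal RNA gene Rn45s. OGT-sufficient replicate 3 stood apart: 18346 genes had a count in it, against 14412 to 15197 in the other libraries, and 310 of 1125 olfactory receptor genes, which T cells do not use, had a count there against 13 to 56 elsewhere. Levels are given in CPM, a gene's reads scaled to a common library size. Summed markers of B cells (212 CPM), red blood cell precursors (762 CPM) and neutrophils (101 CPM) were also highest in it, while the 6 Treg markers were lowest (1256 CPM, against 1674 to 1990 in the other libraries). The 8 macrophage markers ranged over 1440 to 3098 CPM in OGT-sufficient and 989 to 4412 CPM in OGT-deficient libraries. No marker in the table was at 0 in all libraries. The main results are therefore given with all 6 libraries and without this one. Because these are bulk samples, fewer cells of a type and less RNA per cell cannot be told apart.

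Ogt checks the labels. Its counts in replicates 1, 2 and 3 were 562, 632 and 957 with OGT and 327, 266 and 368 without it. The groups did not overlap, at 190.8 ± 53.9 against 82.7 ± 14.6 CPM (SD, n = 3 each). The log2 fold change, here and below OGT-deficient over OGT-sufficient, was -1.21 (SE 0.21), with an adjusted p of 0.191 in edgeR's quasi-likelihood test over 10949 genes. Ogt was highest in OGT-sufficient replicate 3. Without that library the log2 fold change was -0.94, with an adjusted p of 0.14 in edgeR's quasi-likelihood test. Under the alternatives tried the adjusted p ran from 1.6e-05 to 0.764. Ogt (chromosome X, 101640060 to 101684351, plus strand, mm10) is counted over the whole gene, so transcripts of a recombined allele can still contribute reads.

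Of the 92 oxidative phosphorylation genes, 77 had enough counts to be tested, and 0 of them passed an adjusted p of 0.1 in either direction (edgeR, all 6 libraries); over all genes tested, 0.0274% did. Differences were small and mostly positive. The fold change was above 0 for 63 of the 77 genes (81.8%), against 47.3% of all genes tested, and the median log2 fold change was 0.16 against -0.017. At an unadjusted p of 0.05, 4 genes were higher in OGT-deficient cells (5.19%, against 3.09% of all genes) and 0 were lower (against 4.01% of all genes). Without OGT-sufficient replicate 3, the fold change was above 0 for 46 of 77 genes (59.7%, against 50.8% of all genes) and the median was 0.04 against 0.0032 for all genes. In that fit 3 genes were higher at an unadjusted p of 0.05, against 3.33% of all genes, and 1 lower, against 3.6% of all genes; in all 4 of 77 (5.19%), below the 6.92% of all genes in either direction. The members were chosen with these data already known, so these counts are a description and carry no p.

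**Figure D1:**
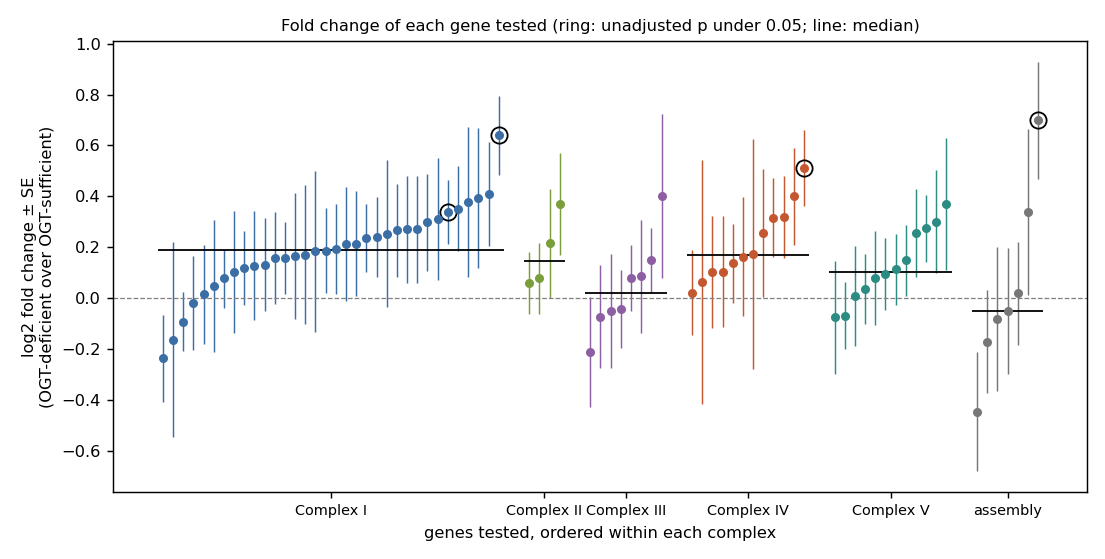
Log2 fold change with its standard error (vertical axis, OGT-deficient over OGT-sufficient) for each of the 77 genes tested, grouped by complex and ordered within it; black lines are medians and rings mark the 4 genes with an unadjusted p under 0.05. The 12 complex IV genes and the 4 complex II genes all lie above 0, while complex III and the assembly group straddle it; without OGT-sufficient replicate 3, 7 of 12 and 3 of 4 were above 0.

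The groups did not overlap for 9 of the 77 genes that were higher in every OGT-deficient library (11.7%, against 5.72% of all genes): Atp5j, Atp5j2, Cox4i1, Cox7a2, Cox7a2l, Ndufa6, Ndufaf2, Ndufb11 and Ndufb3. Ndufaf1 was the 1 gene lower in every OGT-deficient library, against 7.48% of all genes. When OGT-sufficient replicate 3 was set aside, the 2 remaining controls still lay below all OGT-deficient libraries for the 9 genes named and for no others, against 10.4% of all genes, so that the members' share was then near the background.

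Complex I, the NADH dehydrogenase, had a median log2 fold change of 0.19, with 30 of 34 tested genes above 0. Without OGT-sufficient replicate 3 these were 0.081 and 23 of 34. Ndufb11, an accessory subunit of its membrane arm, had the lowest p of all members. Its level was 20.8, 19.7 and 18.2 CPM in OGT-sufficient replicates 1 to 3 and 34.3, 27.8 and 29.4 CPM in the OGT-deficient libraries. Every OGT-deficient value lay well above the highest control, and the controls were close together. The log2 fold change was 0.64 (SE 0.15), with an unadjusted p of 0.0026 and an adjusted p of 0.365 (edgeR). It was 0.60 without OGT-sufficient replicate 3. Over the alternatives the log2 fold change of Ndufb11 stayed between 0.55 and 0.73 and its adjusted p between 0.137 and 0.916. Ndufb11 (chromosome X, 20615326 to 20617619, minus strand) overlaps the start of Rbm10, an RNA-binding protein gene on the other strand with 102 to 139 counts. The strand setting of the counting is not given in the sources used here, so reads of the overlap cannot be told apart by strand. In GENCODE M21, 17.5% of the 50-base words of the Ndufb11 mRNA also occur in Gm6444 or Rbm10. How reads matching several genes were counted is not given either.

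Ndufa6, an accessory subunit of complex I, was at 49.4, 49.3 and 40.5 CPM in OGT-sufficient and 59.3, 57.7 and 59.0 CPM in OGT-deficient libraries. The OGT-deficient libraries lay within 2 CPM of each other and above all controls. The log2 fold change was 0.34 (SE 0.13; edgeR adjusted p = 0.637). It was 0.26 without OGT-sufficient replicate 3, and 0.15 when counts were corrected for mRNA length and GC content. Ndufa6 lies on chromosome 15 (82350140 to 82354322, minus strand) and overlaps no annotated gene.

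The catalytic core of complex I differed less. Ndufv1, which binds NADH and the flavin, was at 32.6, 29.6 and 22.6 CPM in OGT-sufficient and 34.1, 33.1 and 29.4 CPM in OGT-deficient libraries, a log2 fold change of 0.19 (SE 0.17) that became 0.058 without OGT-sufficient replicate 3. Ndufs1, the large iron-sulfur subunit, was at 51.3, 56.6 and 56.6 CPM against 59.6, 58.9 and 55.0 CPM, a log2 fold change of 0.08 (SE 0.12). Groups overlapped for both. Ndufs4, an accessory subunit needed for a stable complex, was at 62.8, 56.0 and 55.3 CPM against 77.9, 64.8 and 62.4 CPM, a log2 fold change of 0.24 (SE 0.13). Ndufs4 overlapped between groups by the lowest OGT-deficient library alone.

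Complex II, succinate dehydrogenase, has 4 subunits and all 4 had fold changes above 0, with a median log2 fold change of 0.15. Without OGT-sufficient replicate 3 the median was 0.036 and 3 of 4 were above 0. Sdha, the flavoprotein, was the most abundant by CPM. It stood at 218, 213 and 177 CPM in OGT-sufficient and 206, 229 and 199 CPM in OGT-deficient libraries, with overlapping groups and a log2 fold change of 0.06 (SE 0.12), which was -0.020 without that library. Sdhb, the iron-sulfur subunit, was at 49.7, 56.8 and 31.6 CPM against 63.2, 59.5 and 55.8 CPM. OGT-sufficient replicate 3 was far below the other 5 libraries, and the log2 fold change of 0.37 (SE 0.20) became 0.17 without it. Sdhc, 1 of the membrane anchors, had a log2 fold change of 0.21 (SE 0.21), and 0.045 without that library.

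Complex III, the cytochrome bc1 complex, had a median of 0.02 and 4 of 8 genes above 0 with all libraries. Without OGT-sufficient replicate 3 the median was -0.087 and 2 of 8 were above 0. Uqcrh, the hinge protein, was at 137, 129.9 and 104 CPM against 143, 135 and 132 CPM, a log2 fold change of 0.15 (SE 0.13). Uqcrc1, a core protein, had a log2 fold change of 0.08 (SE 0.13). Without OGT-sufficient replicate 3 these values were 0.046 for Uqcrh and -0.022 for Uqcrc1. Uqcrfs1, the Rieske iron-sulfur protein, was at 48.6, 58.5 and 32.9 CPM against 42.0, 41.5 and 49.5 CPM, a log2 fold change of -0.07 (SE 0.20), which was -0.26 without that library. With all libraries, the spread of the OGT-sufficient libraries was wider than the difference for each of these. Uqcrq had the highest fold change of the complex, 0.40 (SE 0.32), and was at 11.6 CPM in OGT-sufficient replicate 3 against 27.0 to 34.8 CPM elsewhere. Without that library the log2 fold change of Uqcrq was 0.07.

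Complex IV, cytochrome c oxidase, had 12 of 12 tested genes above 0 and a median log2 fold change of 0.17, which became 0.026, with 7 of 12 above 0, without OGT-sufficient replicate 3. Cox7a2l, which resembles the subunit Cox7a2 and helps to join complexes III and IV into supercomplexes, was at 82.8, 88.9 and 61.1 CPM in OGT-sufficient and 114, 111 and 107 CPM in OGT-deficient libraries. The groups were well apart even where the control values were highest. The log2 fold change was 0.51 (SE 0.15), with an unadjusted p of 0.00781 and an adjusted p of 0.509 (edgeR). It was 0.37 without OGT-sufficient replicate 3. Cox7a2l lies on chromosome 17 (83501918 to 83517330, minus strand). In GENCODE M21, 17.8% of the 50-base words of its mRNA also occur in Gm6969, and how reads matching both were counted is not given. Cox4i1, the common form of the regulatory subunit that binds nucleotides, was at 111, 116 and 67.1 CPM against 124, 131 and 132 CPM. Its log2 fold change of 0.40 (SE 0.19) became 0.20 when OGT-sufficient replicate 3 was left out, since that library alone lay near 67 CPM. Cox5b, a small subunit carrying zinc, was at 13.1, 12.9 and 9.21 CPM against 11.1, 13.4 and 13.4 CPM, with overlapping groups (log2 fold change 0.10, SE 0.22, and -0.035 without that library).

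Complex V, the ATP synthase, had a median log2 fold change of 0.10 and 10 of 12 tested genes above 0. Without OGT-sufficient replicate 3 these were 0.014 and 7 of 12. Atp5a1 and Atp5b, of its catalytic head, were the most abundant of all members by CPM. Atp5a1, the alpha subunit, was at 445, 506 and 359 CPM in OGT-sufficient and 470.0, 489 and 441 CPM in OGT-deficient libraries (log2 fold change 0.10, SE 0.14). Atp5b, the catalytic beta subunit, was at 412, 424 and 317 CPM against 430.0, 436 and 381 CPM (log2 fold change 0.11, SE 0.14). In both genes the other 2 controls lay among or above the OGT-deficient values and OGT-sufficient replicate 3 lay below all others. Without it the log2 fold changes were -0.018 for Atp5a1 and 0.00054 for Atp5b. Atp5j, coupling factor F6 of the stalk, was at 111, 93.7 and 83.5 CPM against 122, 114 and 113 CPM. Its log2 fold change was 0.27 (SE 0.13; edgeR adjusted p = 0.725) and 0.19 without OGT-sufficient replicate 3. Atp5j starts head to head with and overlaps Gabpa, a transcription factor gene on the other strand with 298 to 358 counts.

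The assembly group had 3 of 7 tested genes above 0 and a median of -0.05, which became 4 of 7 and 0.16 without OGT-sufficient replicate 3. Ndufaf2, a complex I assembly factor, was at 5.88, 5.12 and 5.002 CPM in OGT-sufficient and 8.77, 8.60 and 8.65 CPM in OGT-deficient libraries, from 19 to 34 counts per library. Both groups were tight and apart from each other. The log2 fold change was 0.70 (SE 0.23; edgeR adjusted p = 0.565), and 0.66 without OGT-sufficient replicate 3. Ndufaf2 (chromosome 13, 108002715 to 108158623, minus strand) overlaps Smim15 on the other strand, which had 141 to 234 counts. Ndufaf1, another complex I assembly factor, went the other way, at 11.0, 11.9 and 10.3 CPM against 6.19, 8.35 and 9.70 CPM. Its log2 fold change was -0.45 (SE 0.23; edgeR adjusted p = 0.749). Ndufaf1 falls outside the naming rule and was named after its values were seen, as the 1 member lower in every OGT-deficient library. Ndufb7, a complex I accessory subunit, was likewise named afterwards: it was the 1 gene with a lower value at an unadjusted p of 0.05 once OGT-sufficient replicate 3 was left out (log2 fold change -0.38, against -0.24 with all libraries).

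**Figure D2:**
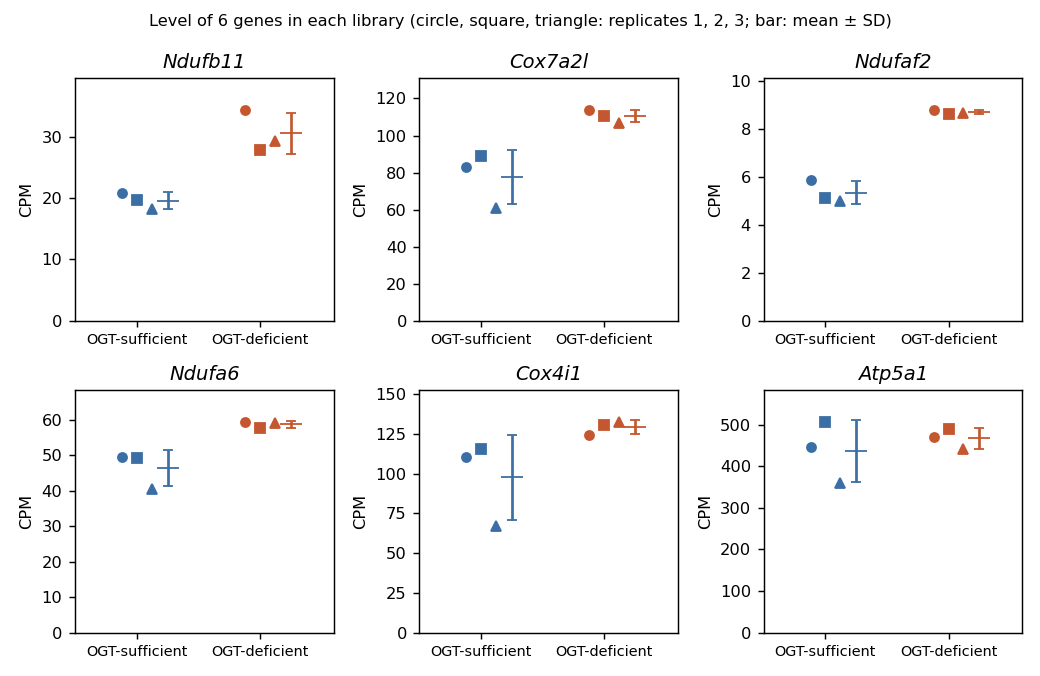
Level in CPM (vertical axes, from 0) of 6 genes in each library; circles, squares and triangles are replicates 1, 2 and 3, and bars are the mean ± SD of 3. The OGT-sufficient and OGT-deficient libraries do not overlap for Ndufb11, Cox7a2l, Ndufaf2, Ndufa6 and Cox4i1, and do for Atp5a1, and OGT-sufficient replicate 3 is the lowest library for all 6.

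The summed level of the subunits followed the same order of libraries. All 92 genes together had 3865, 3852 and 2894 CPM in OGT-sufficient and 4023, 4075 and 3660.0 CPM in OGT-deficient libraries. OGT-sufficient replicate 3 lay below the rest, while the other 2 controls lay between the lowest and the middle OGT-deficient library. The ratio of means was 1.11, and 1.02 without that library. By complex, the ratio was 1.13 for complex I, 1.09 for complex II, 1.05 for complex III, 1.23 for complex IV and 1.08 for complex V. Without OGT-sufficient replicate 3 these became 1.04, 1.01, 0.953, 1.09 and 0.991 in the same order. The summed level of the 9 genes of the assembly group had a ratio of 0.995. Groups overlapped in the sum of every complex.

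OGT-sufficient replicate 3 was the lowest library for 64 of the 77 genes tested (83.1%), against 23.8% of all genes tested. The median deviation of the members from their mean over 6 libraries was -0.36 on the log2 scale there, and 0.0054 for all genes. The drop was seen in each complex: -0.41 in complex I, -0.36 in complex II, -0.29 in complex III, -0.43 in complex IV and -0.33 in complex V. In the other 5 libraries the medians of the complexes lay between -0.05 and 0.23. Cytosolic ribosomal protein genes, another set of short and abundant transcripts, were lowest there too: their 84 genes summed to 6435 CPM in that library, which is 0.740 of the mean of the other 2 controls, against 0.750 for the oxidative phosphorylation genes. The part of the olfactory receptor, B-cell, red-cell and neutrophil counts of this library in these values was not tested.

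**Figure D3:**
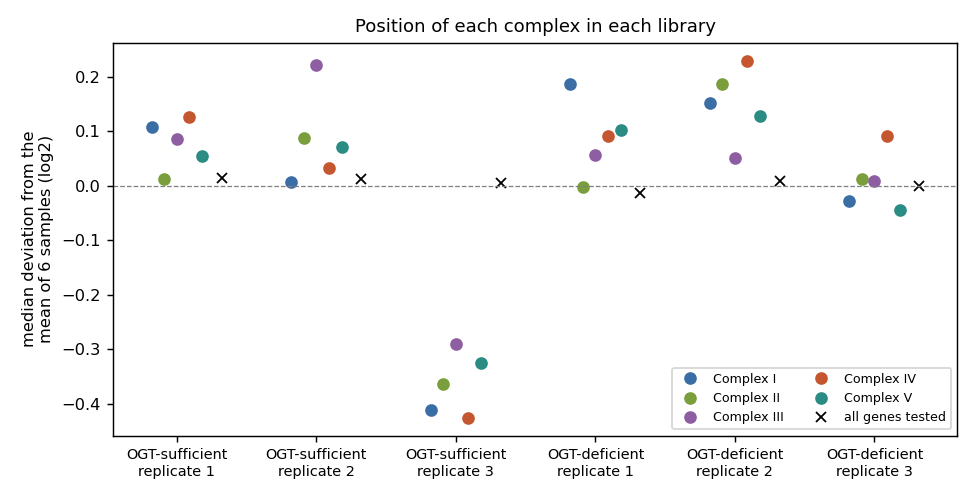
Median deviation of the tested genes of each complex from their own mean over the 6 libraries (vertical axis, log2) in each library (horizontal axis); crosses are all genes tested. All 5 complexes lie between -0.29 and -0.43 in OGT-sufficient replicate 3, where all genes lie at 0.0054, and between -0.05 and 0.23 in the other libraries.

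The median of the members stayed above that of all genes whichever library was left out, by least without OGT-sufficient replicate 3 (0.04 against 0.0032). It was 0.29 without OGT-sufficient replicate 1 and 0.24 without OGT-sufficient replicate 2, fits in which OGT-sufficient replicate 3 was 1 of 2 controls. It was 0.15, 0.11 and 0.21 without OGT-deficient replicates 1, 2 and 3. The transcripts of the members are short, with a median mRNA length of 763 bp against 2708 bp for all genes tested. With all 6 libraries, short genes in general had higher fold changes. The 962 tested genes of up to 1000 bp had a median of 0.10 with 63.7% above 0. Those over 4000 bp had a median of -0.062 with 38.6% above 0. Without OGT-sufficient replicate 3, genes of up to 1000 bp had a median of 0.035. Of these, 55.5% were above 0 in that fit, against 50.8% of all genes. After a correction for mRNA length and GC content, again with all 6 libraries, 55 of 77 members were above 0 (71.4%, against 51.8% of all genes). Their median was then 0.10 against 0.01. The correction was not run without OGT-sufficient replicate 3. The 30 members longer than 1000 bp had a median of 0.10 with all libraries and 0.04 without OGT-sufficient replicate 3. How length enters the difference was not tested further.

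**Figure D4:**
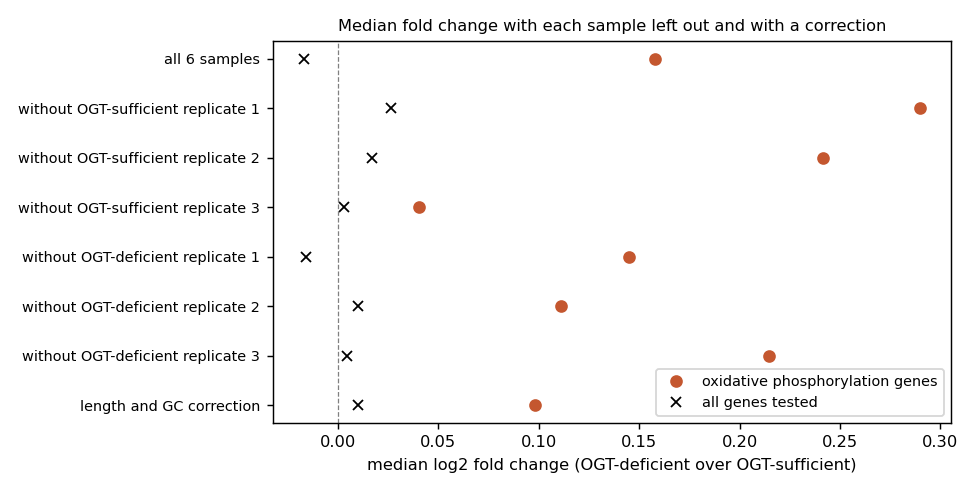
Median log2 fold change (horizontal axis, OGT-deficient over OGT-sufficient) of the oxidative phosphorylation genes (circles) and of all genes tested (crosses), with all 6 libraries, with each library left out in turn, and with a length and GC correction. The circles range from 0.04 without OGT-sufficient replicate 3 to 0.29 without OGT-sufficient replicate 1, and the crosses stay between -0.017 and 0.026.

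Levels between genes were compared as CPM per kilobase of the median protein-coding mRNA, averaged over the 6 libraries. Uqcrh was highest at 274 ± 28.8 CPM per kb (SD over 6 libraries), followed by Atp5b at 209 ± 23.6, Atp5a1 at 176 ± 20.1, Cox4i1 at 150.2 ± 32.1, Atp5j at 143 ± 19.5 and Ndufa6 at 138 ± 19.5 CPM per kb. The ranges of Atp5b and Atp5a1 overlapped, although Atp5b was the higher in 6 of 6 libraries. From Cox4i1 to Ndufa6 the neighbours in this order did not differ beyond their spread. The median over all 92 genes was 29.3 CPM per kb.

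Within the catalytic head of the ATP synthase, the alpha and beta subunits are each present in several copies around single copies of the gamma, delta and epsilon subunits. Per length, Atp5a1 ranged over 139.6 to 197 and Atp5b over 165 to 228 CPM per kb in the 6 libraries. Atp5c1 (gamma) ranged over 75.4 to 101, Atp5d (delta) over 48.4 to 83.0 and Atp5e (epsilon) over 51.9 to 82.5 CPM per kb. The alpha and beta genes were above the other 3 in every library, without overlap. In complex II, where each subunit is present once, the levels per length were unequal. Sdha ranged over 61.2 to 79.0, Sdhb over 27.7 to 55.3, Sdhd over 25.4 to 32.1 and Sdhc over 11.5 to 22.1 CPM per kb. The ranges of Sdhb and Sdhd overlapped, and those of Sdha and Sdhc did not overlap with any other.

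Several subunits exist as tissue isoforms. The widely expressed forms were present and the muscle, lung or testis forms were near 0, with 1 exception. Cox4i1 had 67.1 to 132 CPM, while Cox4i2, the form best known from lung, had 0 to 5 counts per library. Cox6a1 had 35.0 to 70.9 CPM, Cox6b1 37.6 to 62.9 CPM against 1 to 10 counts of the testis form Cox6b2, and Cox7a2 20.3 to 31.4 CPM against 0 to 4 counts of the muscle form Cox7a1. Cox8a had 24.5 to 49.4 CPM, against 0 to 3 counts of the muscle form Cox8b. Cox7b was at 39.0 to 56.7 CPM and Ndufa4, counted with complex I by its symbol though later work places it in complex IV, at 14.0 to 26.1 CPM, while Cox7b2, Cox8c and Ndufa4l2 had 0 counts in all 6 libraries, where 3 counts correspond to 0.759 to 0.808 CPM (counting error only).

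The exception was the muscle form Cox6a2, with 39, 19 and 20 counts in OGT-sufficient and 13, 35 and 43 counts in OGT-deficient libraries. It overlaps Itgad, an integrin gene on the other strand with 837, 605, 409, 159, 809 and 1108 counts in the same order. The lowest Cox6a2 library was also the lowest for Itgad, and the highest for Itgad was the highest for Cox6a2. In GENCODE M21, 3.33% of the 50-base words of the Cox6a2 mRNA also occur in Itgad. With the strand setting not given, reads of the overlap cannot be told apart by strand. The 8 macrophage markers summed to 3098, 2614, 1440, 989, 3591 and 4412 CPM in the same libraries, lowest and highest where Itgad was, and their part in the Cox6a2 counts was not tested. Itgad was named after its values were seen.

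The 15 members not tested had 0 to 15 counts in any library. Apart from the tissue isoforms they include genes for constituent subunits of complexes I and V, among them Ndufab1, Ndufb4, Ndufs5, Atp5l, Atp5g1 and Atp5g2. Ndufs5 had 0 counts in all 6 libraries. In GENCODE M21, 22.9% of the 50-base words of its mRNA also occur in BC002163, named after its values were seen, which had 39, 41 and 40 counts in OGT-sufficient and 42, 41 and 35 counts in OGT-deficient libraries. Atp5g2 shares 87.4% of its 50-base words with 2 other annotated genes and had 0 to 4 counts, and Atp5l shares 84.8% with 14 and had 4 to 10 counts. The third gene for the c subunit, Atp5g3, shares none and was at 45.0 to 64.3 CPM, while Atp5g1 had 0 to 12 counts with 11.1% of its words shared. The handling of reads that match several genes is not given in the sources used here, so the level of genes with near-identical copies is uncertain.

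Over the members, 48 share at least 1 such word with another gene. The median level was 33.7 CPM per kb for the 58 genes with under 5% of their words shared, 24.6 for the 24 genes with 5% to under 30% and 17.0 for the 10 genes with 30% or more. Of the 10 most shared genes 3 were not tested. The order is a description over genes that differ in much else. The share of Atp5o, 50.3%, is in part with a second annotation entry of the same symbol. With all 6 libraries, the 33 tested members with no overlapping gene and under 5% of words shared had 24 of 33 fold changes above 0. This was 72.7%, against 47.3% of all genes tested, and the median log2 fold change was 0.17 against -0.017. Values of this subset without OGT-sufficient replicate 3 are not given here. The median of all 77 tested members was 0.04 without that library.

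**Figure D5:**
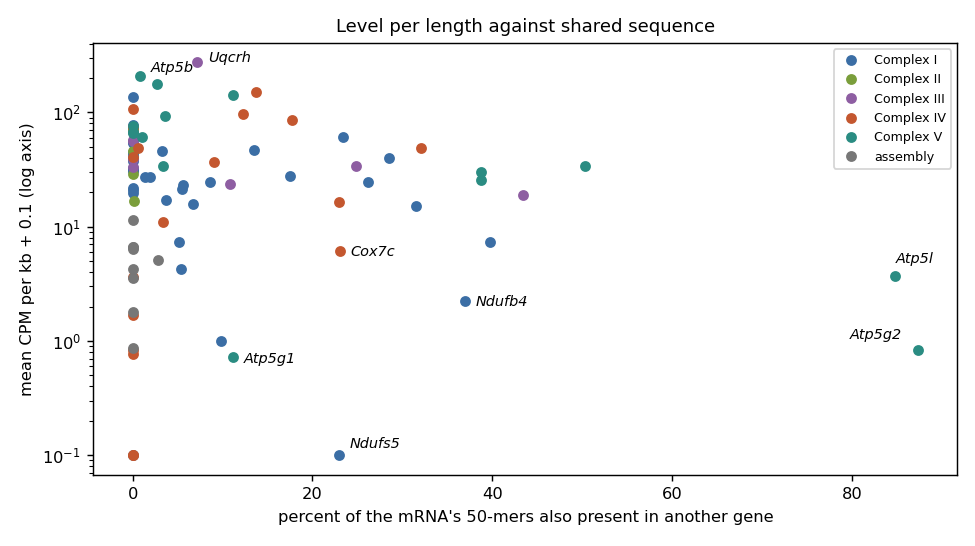
Mean level per length over 6 libraries (vertical axis, CPM per kb plus 0.1, log axis) against the percent of each mRNA's 50-base words that also occur in another annotated gene (horizontal axis), for all 92 genes coloured by complex. Atp5g2 and Atp5l, at 87.4% and 84.8%, lie far below most genes, and Ndufs5 at 22.9% lies on the floor of the plot.

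Promoter sequences were searched because nuclear respiratory factor 1 (NRF1), the ETS factor GABP and Sp1 are textbook regulators of these genes. RefSeq gave a promoter, from 250 bases before to 50 bases after the start, for 76 of the 92 genes (82 promoters, GRCm38.p6, the assembly that mm10 corresponds to). The motifs were GCGCATGC for NRF1, CCGGAAGT for ETS factors and GGGCGG for Sp1, on both strands. The NRF1 letters overlap their own reverse complement by 6 bases, so a match on each strand 2 bases apart is 1 site, and neither of the other motifs contains another. NRF1 letters were in 14.6% of the members' promoters, against 5.44% of those of genes tested and 2.71% of all 32851. ETS letters were in 6.10%, 8.73% and 3.89%, and Sp1 letters in 42.7%, 62.1% and 35.7%, in the same order. A match is a description and not a binding site.

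The promoters of the members with the lowest p that held a match are shown on the strand of the gene, with matches in capitals. Ndufb11 held none of the 3 motifs and is not shown. In Cox7a2l (chr17:83514284-83514583, minus strand) the capitals mark Sp1 letters starting at -22 and 13, in a window inside the span that GENCODE gives the gene; in Ndufaf2 (chr13:108158576-108158875, minus strand) Sp1 letters at -14, and in Ndufa6 (chr15:82354242-82354541, minus strand) NRF1 letters at -83 and Sp1 letters at 43, counted from the start.
Cox7a2l: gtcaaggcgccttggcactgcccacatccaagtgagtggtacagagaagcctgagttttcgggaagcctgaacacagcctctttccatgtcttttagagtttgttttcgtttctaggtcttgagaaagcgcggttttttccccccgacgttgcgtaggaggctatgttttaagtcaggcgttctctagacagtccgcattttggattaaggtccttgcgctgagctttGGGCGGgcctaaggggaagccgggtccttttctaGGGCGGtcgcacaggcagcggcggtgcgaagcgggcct
Ndufaf2: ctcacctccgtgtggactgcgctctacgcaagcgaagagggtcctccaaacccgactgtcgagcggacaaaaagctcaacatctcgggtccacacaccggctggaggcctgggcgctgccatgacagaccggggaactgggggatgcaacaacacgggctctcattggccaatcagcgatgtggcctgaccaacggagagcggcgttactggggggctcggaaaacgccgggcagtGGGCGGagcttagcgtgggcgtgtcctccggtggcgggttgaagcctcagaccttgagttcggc
Ndufa6: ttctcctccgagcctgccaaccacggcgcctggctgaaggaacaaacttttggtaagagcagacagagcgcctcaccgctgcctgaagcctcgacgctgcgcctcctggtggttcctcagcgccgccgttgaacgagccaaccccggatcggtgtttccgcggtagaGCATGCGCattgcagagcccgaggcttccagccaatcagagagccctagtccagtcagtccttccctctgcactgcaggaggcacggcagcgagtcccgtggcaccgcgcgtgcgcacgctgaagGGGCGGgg

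No regulator passed the test. Nrf1 was at 67.6, 70.6 and 85.8 CPM in OGT-sufficient and 64.8, 64.0 and 60.8 CPM in OGT-deficient libraries. Every OGT-deficient value lay below the controls, and the log2 fold change was -0.24 (SE 0.13; edgeR adjusted p = 0.754). It was -0.12 without OGT-sufficient replicate 3. Gabpa had a log2 fold change of -0.12 (SE 0.12) and Tfam, the packaging and transcription factor of mitochondrial DNA, one of -0.06 (SE 0.14). Without OGT-sufficient replicate 3 these were -0.18 for Gabpa and -0.13 for Tfam, further below 0. The coactivator Ppargc1b was at 13.4, 18.9 and 30.01 CPM against 11.6, 13.9 and 18.1 CPM, with overlapping groups (log2 fold change -0.51, SE 0.30; edgeR adjusted p = 0.757). OGT-sufficient replicate 3 was the highest library, and without it the log2 fold change was -0.14. Ppargc1a had 0 to 7 counts per library and was not tested.

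Related mitochondrial gene lists gave 0 genes past an adjusted p of 0.1 and 0 genes at an unadjusted p of 0.01 (edgeR), where 202 of 10949 genes had such a p. At an unadjusted p of 0.05, the counts below stand against 3.09% of all genes higher and 4.01% lower. The 20 tested genes of mitochondrial DNA expression and biogenesis, which include the regulators above, had a median of -0.13. Of these, 5 were above 0 (25%, against 47.3% of all genes tested). At an unadjusted p of 0.05, 1 was higher, the growth regulator Myc (log2 fold change 0.41, SE 0.13), and 1 lower, Mterf3 (-0.50, SE 0.20). The 17 genes of electron carriers, among them Cycs for cytochrome c (0.23, SE 0.20) and Cyc1 for cytochrome c1 (0.20, SE 0.18), had a median of -0.04. The 14 enzymes of the tricarboxylic acid cycle had a median of -0.01, with Fh1, fumarate hydratase, lower (-0.44, SE 0.18) and 0 higher at that p.

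With all 6 libraries, 25 of 43 assembly factors tested were above 0 (58.1%, against 47.3% of all genes tested) with a median of 0.07. The members Ndufaf2 and, outside the 92 genes, Uqcc2 for complex III (0.54, SE 0.23) and Cmc1 for complex IV (0.71, SE 0.23) were higher at an unadjusted p of 0.05 (6.98% of the list), and 0 were lower. With all 6 libraries, 49 of 74 mitochondrial ribosomal proteins were above 0 (66.2%, against 47.3% of all genes tested) with a median of 0.07. For both lists, the share above 0 without OGT-sufficient replicate 3 is not given here. Mrpl13, Mrpl17 and Mrpl44 were higher and Mrps25 lower at an unadjusted p of 0.05, with log2 fold changes of 0.40, 0.58, 0.46 and -0.39; the 3 higher are 4.05% of the list. The 75 cytosolic ribosomal proteins had 36 above 0 and a median of -0.01. Without OGT-sufficient replicate 3 these were 26 of 75 (34.7%, against 50.8% of all genes) and -0.11. Rpl39 was lower at an unadjusted p of 0.05 (-0.48, SE 0.21). Genes of these lists other than Cycs, Cyc1 and the regulators from Nrf1 to Ppargc1a were named after their values were seen, as those with a p under 0.05.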

How the data were processed

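RNA of 6 samples was sequenced as 2x50 paired-end reads. The authors trimmed the reads (Trimmomatic 0.33) and aligned them with Bowtie2 (2.2.4.0) to mm10. The submitters' processing notes name featureCounts, whereas the paper names Cuffquant; neither the annotation, nor whether strand was used, nor how multi-mapping reads were counted is given in the sources used here. The authors deposited whole-number counts per gene and sample, not normalized. Columns of the authors' own comparison (fold change, p-value and FDR) were not used.

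Groups follow the genotype in the labels. Counts were tested with edgeR 4.0.16 (R 4.3.3; quasi-likelihood test, TMM scaling, minimum count of 10, no replicate block, Benjamini-Hochberg adjustment over 10949 genes); the SE was derived from the log2 fold change and the F statistic. CPM (counts scaled to a common library size) uses TMM-scaled library sizes, 3712093 to 3952583. Alternatives were DESeq2 (1.42.0), the exact test, other scalings and filters, a replicate block, length and GC offsets and leaving out each sample; library size without Rn45s, and members with no overlapping gene and under 5% of shared words, were added after seeing the data. The script was tested on simulated data. mRNA lengths, overlaps and shared 50-base words come from GENCODE M21, matched by symbol (23375 of 24420 directly, 676 through a RefSeq synonym).

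The members and lists were chosen with earlier results of these data known. Genes named are Ogt; members with an unadjusted p under 0.05; in each complex the 2 with the highest CPM and the 2 with the lowest p; chosen core subunits and tissue isoforms; and chosen regulators and carriers. Other members named (Ndufab1, Ndufaf1, Ndufb3, Ndufb4, Ndufb7, Ndufs5, Atp5c1, Atp5d, Atp5e, Atp5l, Atp5o, Atp5s and Atp5sl) were picked after their values were seen. Some genes that the rule names are not reported here. Replicates differed by more than sampling noise.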

Additional observations from a re-analysis of the deposited data

How the results depend on the processing

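Depth limits genes of a few counts: the 15 members not tested are unknown rather than unchanged. The count of members with an unadjusted p under 0.05 was 4 (5.19%, against 7.10% of all genes), but 10 with no low-count filter (11.4%, against 6.13%), 2 in DESeq2 (2.27%, against 2.55%) and 3 to 10 when each sample was left out (3.90% to 12.8%, against 4.13% to 7.90% of all genes). Over all alternatives 0 members passed an adjusted p of 0.1. The count above 0 ran from 46 (of 77 tested) to 71 (of 88 tested). The share above 0 ran from 59.7% to 89.7% of members, against 39.7% to 53.4% of all genes tested. With each sample left out, the median of complex IV ranged from 0.026 to 0.42, that of the assembly group from -0.091 to 0.16, of electron carriers from -0.032 to 0.047 (-0.097 with library size only), of mitochondrial DNA expression from -0.19 to -0.043, of mitochondrial ribosomal proteins from -0.0063 to 0.23 and of the tricarboxylic acid cycle from -0.041 to 0.097. Ogt passed the adjusted threshold with no filter (-1.15), in the exact test (-1.21) and in DESeq2 (-1.18). Among 29 named members under 15 alternatives (435 values), 9 reversals occurred in 8 genes. With each sample left out, the log2 fold change ranged from -0.018 to 0.25 for Atp5a1, -0.035 to 0.23 for Cox5b, -0.073 to 0.41 for Cox8a, -0.020 to 0.15 for Sdha and -0.022 to 0.18 for Uqcrc1, each below 0 only without OGT-sufficient replicate 3. It ranged from -0.15 to 0.63 for Cox6a2, below 0 without OGT-deficient replicate 3, and from -0.26 to 0.16 for Uqcrfs1, above 0 without OGT-sufficient replicate 2 and, at 0.0033, without OGT-deficient replicate 2. Uqcrh was at -0.00014 with the length and GC correction. The cause was not tested. Same-numbered samples did not deviate together (correlations -0.274, 0.00546 and -0.115), so the numbers were not taken to pair them. With the replicate number as a block, 6 members had an unadjusted p under 0.05 (7.79%, against 6.20% of all genes), 0 passed an adjusted p of 0.1, the median was 0.15 and Ogt was at -1.19; over all genes 679 had an unadjusted p under 0.05, against 777 without the block.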
